A study of Homo sapiens with 6 samples.

Results

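The liver X receptors and their target genes are described here in AB 8/13 cells, a conditionally immortalized human podocyte line that divides at a permissive temperature and differentiates at a restrictive one. The 10 genes were chosen by name, with the fold changes of the deposited comparison of levamisole and vehicle in view, and those fold changes and their p-values are not used. All 10 were found among the 20745 genes of the deposited table. The series has 3 control cultures and 3 cultures treated with levamisole (1 µM, 24 h), an immunomodulatory drug given as a steroid-sparing agent in nephrotic syndrome. By the labels both groups were kept in serum-free medium after differentiation, but by the study's methods the vehicle group stayed in complete medium. The methods take each replicate of a group from a different passage of the same line. Values per culture were not analysed here, so neither the spread between cultures nor an effect of levamisole is given, and no test was run.

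Liver X receptors are nuclear receptors that bind oxysterols, which are oxidized forms of cholesterol, and pair with retinoid X receptors on DNA. Their targets lower the cholesterol load of a cell by exporting cholesterol and by removing the receptors that take up lipoproteins, and they raise the synthesis of unsaturated fatty acids and phospholipids. In podocytes the cholesterol exporter ABCA1 is known for its link to lipid accumulation in glomerular disease.

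The level given for each gene is its base mean, the mean of normalized read counts over the libraries of the deposited fit. This mean mixes both treatment groups. It may also cover other libraries. All 20745 base means differed from each other, 3744 of them were under 1, and the lowest was 0.194. In 6 libraries with size factors of 1, a base mean under 1 would stand for at most 5 reads, which can be placed on 6 libraries in 461 ways. The 3744 different values are more than that, so either more than 6 libraries or very unequal size factors would be needed. The depth of the libraries is unknown and no error can be attached to a base mean.

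The genes of this pathway covered a wide range of levels, with PLTP and ABCA1 at the top by base mean and ABCG1 at the bottom. A base mean of at least 5 was found for 9 of the 10 genes (90%), against 64.3% of all genes in the table. Their median base mean was 112, against 21.8 for all genes. Since the genes were picked by name for a known pathway and with earlier results known, these counts are descriptions. Together the 10 genes held 0.0301% of the summed base means. Without the 22 mitochondrially encoded genes, which held 34.8% of that sum, the share was 0.0462%.

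To set levels of different genes side by side, base means were also divided by the length of the canonical transcript and given per kb. Sequencing followed a modified CEL-seq method, which reads mostly the 3′ end of each transcript, so that the number of reads need not grow with length and division by length can lower long transcripts too far. Both scales are therefore given for the 10 genes. Genes of the other lists are given by base mean, and ranked on it, unless a value per kb is stated. Of the 45 pairs among the 10 genes, 3 changed order between the scales (ABCA1 with LPCAT3, ABCA1 with NR1H2, and SREBF1 with APOE).

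**Figure D1:**
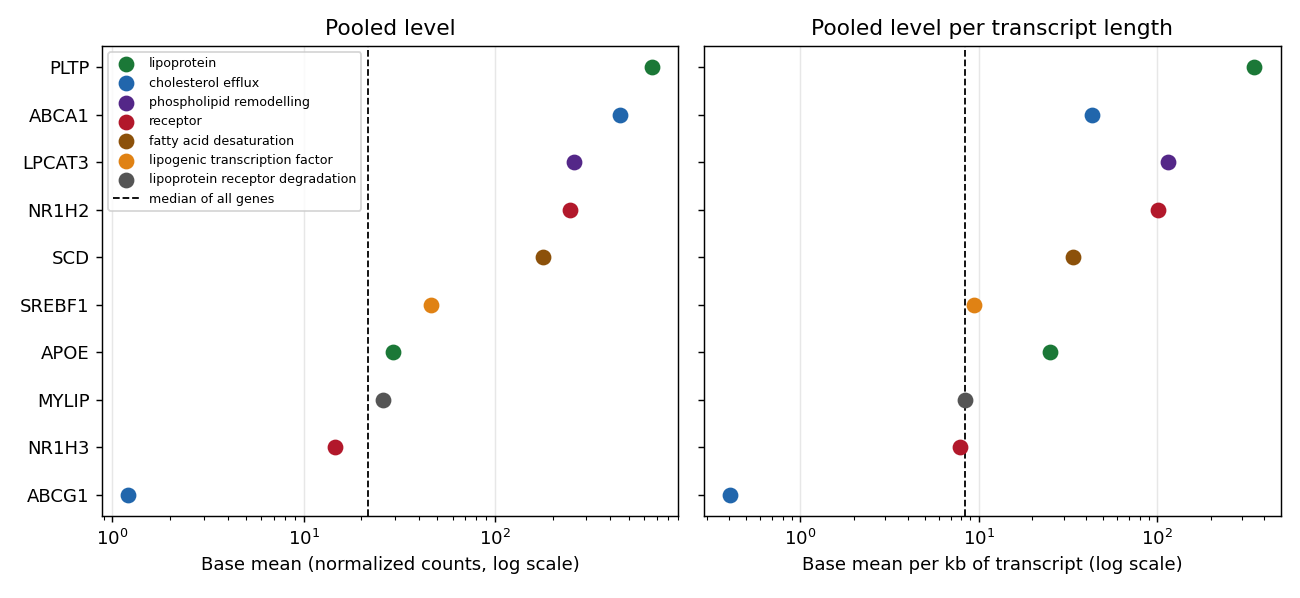
Base mean (left) and base mean per kb of canonical transcript (right) of the 10 genes, on log axes, with 1 point per gene coloured by role and the median of all genes dashed. ABCA1 drops from place 2 to place 4 on the scale per kb, and ABCG1 is last on both.

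NR1H2, which encodes the broadly expressed receptor LXR beta, had a base mean of 245, higher than or equal to 84.1% of all genes. NR1H3, which encodes LXR alpha, the form known from liver, adipose tissue and macrophages, had a base mean of 14.7, at the percentile 45.9. Per kb the base means were 102 for NR1H2 and 7.92 for NR1H3. LXR beta transcripts were thus 12.8 times as high as LXR alpha transcripts per kb, and 16.7 times as high by base mean. NR1H2 lies on chromosome 19 of GRCh38 from 50329653 to 50383388 and NR1H3 on chromosome 11 from 47248300 to 47269033, both on the plus strand.

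Of the receptors' 12 partners and co-regulators, 11 had a row in the table, and their median base mean was 91.0. The retinoid X receptor genes RXRA and RXRB had base means of 57.3 and 30.6, or 10.3 and 10.6 per kb, and RXRG had no row. NR1H2 was 4.28 times as high as RXRA by base mean and 9.81 times as high per kb. The highest base means in this list were 648 for NCOR1, a co-repressor that silences unliganded receptors, 574 for TBL1X and 433 for TBL1XR1, both members of the co-repressor complex. Per kb, TBL1X was above NCOR1, with 98.7 against 60.5. GPS2, another member of that complex, had a base mean of 0.944. Over its last 500 exonic bases, GENCODE 44 places a second gene of the same strand on 100% of the positions, and reads that fall on 2 genes are left uncounted by default, so its level is uncertain.

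ABCA1, the transporter that loads cholesterol and phospholipid onto lipid-poor apolipoproteins, had a base mean of 450, at the percentile 91.1 of all genes. Its transcript is the longest of the 10, with 10408 bases, and its base mean per kb was 43.2, at the percentile 76.0. ABCG1, which moves cholesterol toward high-density lipoprotein particles, had a base mean of 1.21 and 0.407 per kb, at the percentiles 20.4 and 9.75. The pair of exporters therefore differed by a factor of 371 by base mean and of 106 per kb. ABCA1 lies on chromosome 9 from 104781006 to 104928155 on the minus strand, and ABCG1 on chromosome 21 from 42199689 to 42297244 on the plus strand.

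The ABCA1 promoter is shown because it holds the one match among these genes to the element that LXR and its partner are known to bind, a direct repeat of AGGTCA with 4 bases between the repeats (DR4). This motif was searched on both strands of RefSeq promoters (GRCh38.p14, 250 bases before to 50 after each start), with at most 2 mismatches over the 12 fixed bases. The match lies at chr9:104928209-104928224 on the plus strand, opposite to the gene, and its end farther from the gene body starts 69 bases upstream of the transcription start. The 2 repeats are in capitals and the spacer is in lower case.

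ABCA1 DR4 match: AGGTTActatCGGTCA

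Of 15 promoters of the 9 genes in the promoter table, 1 (6.67%) had such a match, against 2.34% of all 35116 promoters. With at most 1 mismatch, 0 of the 15 had a match, against 0.205% of all promoters. ABCG1 was not in the promoter table. Sequence outside these windows was not searched, so a DR4 match elsewhere in or near these genes could not be seen. The match describes letters of the reference sequence, and no binding was measured.

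Among 12 genes of the ABCA family, which encode full-length lipid transporters, 9 had a row. ABCA1 had the highest base mean of them, followed by ABCA12, a transporter of glucosylceramides known from skin, with 174, and by ABCA2 with 32.0. Per kb, ABCA1 was 2.30 times as high as ABCA12. The base means of ABCA10 and ABCA13 were 0.854 and 0.889, and ABCA6, ABCA8 and ABCA9 had no row. In the ABCG family, ABCG2, an exporter of drugs and urate, had 17.6 and ABCG4, a sterol exporter known from brain, had 10.7. ABCG1 was thus the lowest of the 3 ABCG genes with a row, with ABCG2 10.3 times as high per kb. ABCG5 and ABCG8, which form the sterol exporter of liver and intestine, had no row.

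MYLIP, also known as IDOL, is a ubiquitin ligase that marks certain lipoprotein receptors for degradation. Its base mean was 25.9, or 8.45 per kb, at the percentile 51.8 by base mean, near the middle of the table. Among the lipoprotein receptors it is known to act on, the base means were 326 for VLDLR and 60.4 for LRP8. Per kb they were 35.4 and 7.85, so VLDLR was above MYLIP and LRP8 below it on that scale. MYLIP lies on chromosome 6 from 16129086 to 16148248.

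All 13 genes in the list of sterol sensing and uptake had a row and a base mean of at least 5, with a median of 214. The highest were NPC2, a lysosomal cholesterol carrier, with 993, INSIG1, which holds the sterol sensor in the endoplasmic reticulum, with 546, and LIPA, the lysosomal lipase that frees cholesterol from its esters, with 474. Per kb, LIPA was at 189.7 and INSIG1 at 187.9.

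SREBF1, which encodes the transcription factor SREBP-1 that drives fatty acid synthesis, had a base mean of 46.5, or 9.49 per kb. SREBF2, whose product drives cholesterol synthesis, had 419, or 80.0 per kb, and was 8.43 times as high per kb. SCD, the desaturase that makes oleate and palmitoleate, had 178, or 33.9 per kb, at the percentiles 79.7 and 72.4. SCD was therefore 3.57 times as high per kb as SREBF1. SCD5, the other human enzyme of this kind, had a base mean of 299, which was 1.68 times that of SCD by base mean and 2.91 times per kb. SREBF1 lies on chromosome 17 from 17810399 to 17837002, and SCD on chromosome 10 from 100347233 to 100364826.

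Each of the 8 genes of fatty acid desaturation and elongation had a base mean of at least 50, against 39.9% of all genes. Their median was 227. FADS1, the delta-5 desaturase of polyunsaturated fatty acids, led the list with 2473 and was 16.7 times as high as SCD per kb. By base mean SCD5 followed, and then FADS2, the delta-6 desaturase, with 251, while per kb ELOVL1, an elongase of saturated fatty acids, came after FADS1 with 141. FASN and ACACA, the LXR targets that make palmitate and its precursor, had base means of 255 and 76.9.

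LPCAT3, the enzyme that places polyunsaturated fatty acids into membrane phospholipids, had a base mean of 258, or 116 per kb, at the percentiles 84.9 and 88.1. The other LPCAT enzymes had base means of 451 for LPCAT4, 137 for LPCAT2 and 106 for LPCAT1. Per kb, LPCAT3 was 0.555 times the level of LPCAT4 and above LPCAT1 and LPCAT2, at 26.9 and 25.8. LPCAT3 lies on chromosome 12 from 6976185 to 7018477.

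PLTP, a secreted protein that moves phospholipids between lipoproteins, had the highest level of the 10 genes on both scales, with a base mean of 663 and 351 per kb, at the percentiles 94.0 and 95.7. APOE, the ligand through which lipoproteins bind their receptors, had a base mean of 29.4 and 25.2 per kb, at the percentiles 53.4 and 67.7. PLTP was 22.6 times as high as APOE by base mean and 13.9 times as high per kb. For APOE, 3.80% of the last 500 exonic bases lie under a second gene of that strand, and for the 9 other genes none do. PLTP lies on chromosome 20 from 45898621 to 45912155, and APOE on chromosome 19 from 44905791 to 44909393. Of 8 lipid acceptors and lipoprotein proteins, 6 had a row, and APOA1 and APOB, the main proteins of high-density and low-density lipoproteins, had none. By base mean the highest after PLTP were CLU, a secreted chaperone, with 120 and APOL1, an apolipoprotein known for its kidney risk alleles, with 83.8, while APOD had 0.814. Per kb, LCAT, which esterifies cholesterol on lipoproteins, came next after PLTP with 46.7, ahead of CLU with 43.8 and APOL1 with 30.0.

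Of 13 other LXR targets, 7 had a row and 3 of these had a base mean of at least 5. These were FASN and ACACA with the values above and SMPDL3A, a phosphodiesterase, with 15.3. LPL, the lipase of circulating triglycerides, had 3.27, EEPD1 had 3.86, APOC1 had 2.53 and MLXIPL, a glucose-responsive transcription factor, had 1.32. For APOC1, 38.0% of the last 500 exonic bases lie under a second gene of that strand. ABCG5, ABCG8, CETP, APOC2, APOC4 and NR0B2 had no row.

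The enzymes that make or remove oxysterols, the ligands of LXR, were mostly low or without a row. Of 7 such genes, 4 had a row and 1 of these had a base mean of at least 5. This was CYP27A1, a mitochondrial sterol hydroxylase, with 88.0. CYP46A1 had 3.08, CYP11A1 had 2.16 and CYP7B1 had 1.05. CH25H, CYP7A1 and SULT2B1 had no row.

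**Figure D2:**
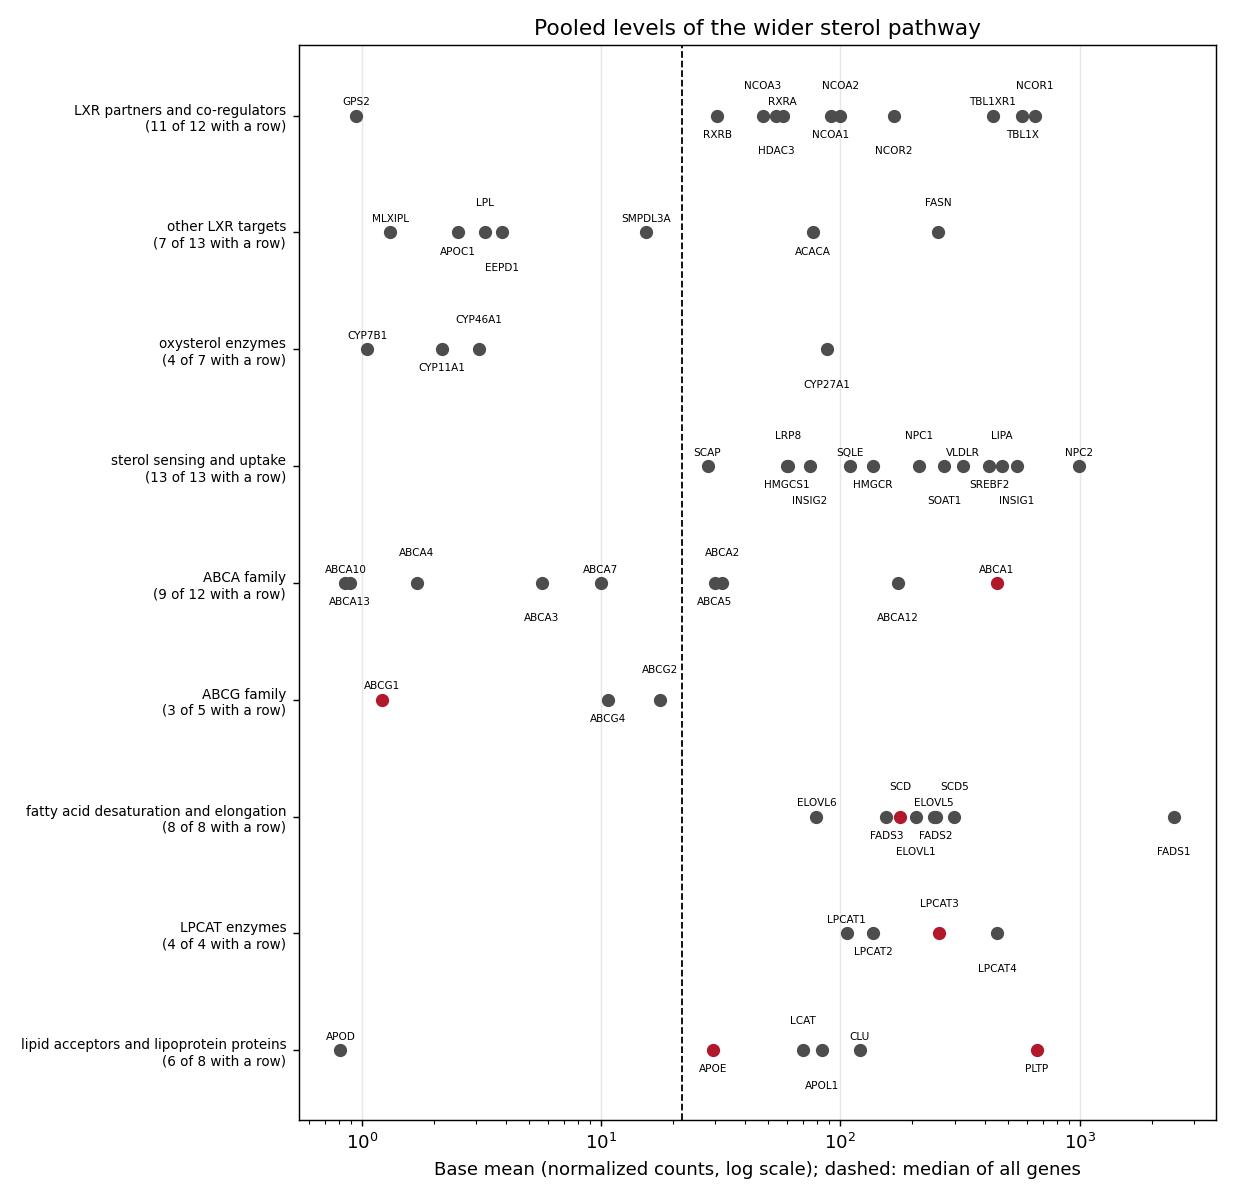
Base means (log axis) of the genes of 9 lists around LXR, 1 point per gene with a row, the LXR genes that are also in one of these lists (ABCA1, ABCG1, SCD, LPCAT3, APOE and PLTP) in red and the median of all genes dashed. ABCA1 is at the upper end of its family and ABCG1 at the lower end of its own. All genes of fatty acid desaturation and elongation, of sterol sensing and uptake, and of the LPCAT enzymes lie above the dashed line.

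The labelled cell type was checked against podocyte markers. Of 12 markers, 9 had a row and 8 of these had a base mean of at least 5. ACTN4, an actin crosslinker that many cells use, had 14320, CD2AP, an adaptor of the slit diaphragm, had 929 and KIRREL1, a slit diaphragm protein, had 253. The defining transcription factor WT1 had 6.21, SYNPO, the actin-associated protein synaptopodin, had 22.8 and PODXL, the surface sialoprotein podocalyxin, had 15.3. PTPRO, a membrane phosphatase of podocyte foot processes, had 0.333. The slit diaphragm gene NPHS1, as well as TRPC6 and LMX1B, had no row. Several markers that define the mature podocyte (WT1, PTPRO, NPHS1) were thus low or without a row, and the cells go by the name of their line here.

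Macrophages are rich in LXR alpha, and their markers were examined beside NR1H3. Of 8 macrophage markers, 5 had a row, none reached a base mean of 5, and they summed to 9.42, with ITGAM the highest at 3.40, followed by CD14 at 2.40 and CSF1R at 1.73, while per kb CD14 was the highest at 1.77. The lowest on both scales was PTPRC, with a base mean of 0.832, and CD163, TYROBP and MARCO had no row. For CD68, with 1.06, 82.6% of the last 500 exonic bases lie under a second gene of that strand. The 3 endothelial markers with a row summed to 1.43 (0.690 for TEK, 0.434 for VWF and 0.306 for CDH5), and PECAM1, KDR and EMCN had no row. Of the proximal tubule markers, AQP1, a water channel, had 243, while CUBN had 1.22, SLC34A1 had 0.900, SLC5A2 had 0.563 and LRP2 had no row. Of the hepatocyte markers, SERPINA1 had 653 and TTR 5.70, while ALB, APOA1 and APOC3 had no row. For mesangial cells, PDGFRB had 4.14, and ITGA8 and DES had no row.

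**Figure D3:**
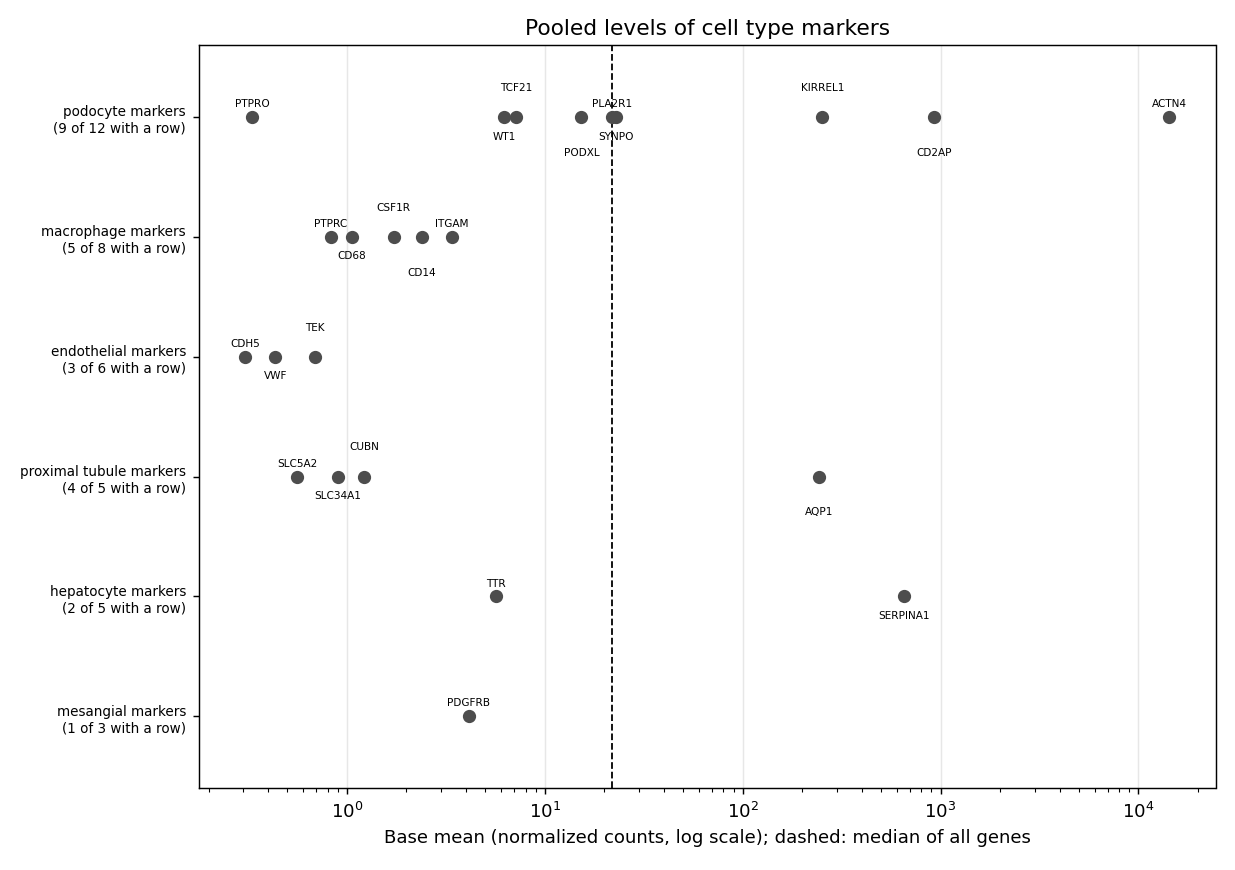
Base means (log axis) of markers of podocytes and of 5 other cell types, 1 point per gene with a row and the median of all genes dashed. The podocyte markers spread from 0.333 to 14320, and every macrophage and endothelial marker with a row lies below 5.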

How the data were processed

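RNA of AB 8/13 cells was sequenced in 3 control and 3 levamisole-treated cultures. Per the submitters' processing notes and the methods, the authors trimmed reads with Trim Galore 0.4.5, mapped them to GRCh38 (Ensembl 95) with STAR 2.7.5a, counted them per gene with HTSeq 0.11.0 and compared the groups with DESeq2 1.22.0. The one file used is the authors' table of that comparison. Its base mean is a signal deposited by the authors, the mean of counts divided by size factors, pooled over libraries. The other 5 numeric columns, which the authors deposited, hold their fold change, its standard error, the test statistic and the p-values, and were not used. With these columns left out and no values per culture, the planned comparison of the groups was not run.

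From the base means, percentiles, ratios and values per kb were computed with Python 3.11.15, pandas 2.3.3 and NumPy 2.4.6, and figures were drawn with matplotlib 3.10.9. A percentile is the percent of genes with a base mean at or below the gene's. Lengths and positions are those of canonical transcripts and genes in GENCODE 44 on GRCh38, and 20599 of 20745 gene IDs matched. Promoters came from RefSeq. The percentile and motif search were checked on made-up data with known answers.

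The 10 genes and all lists were chosen with earlier results of these data known. The genes named are the 10, and in each list the 3 with the highest base mean and those under 1 or without a row. Other genes given were named after their values were seen. Some genes of the lists are not reported here and are in no count of a list.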

Additional observations from a re-analysis of the deposited data

How the results depend on the processing

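No paired analysis was possible because the base mean pools all libraries. For the same reason no replicate was left out and no refit, other normalization or other filter of counts was run. The identity of the LXR proteins was not computed. The median percentile of the 10 genes was 69.4 among all genes, 70.0 per kb and 62.7 among genes at 1 or above. Among genes at 5 or above ABCG1 drops out, and the median of the 9 genes left was 68.4. That is the value of SCD, the middle gene of these 9, which was at 79.7 among all genes. Lower genes moved further, with NR1H3 from 45.9 to 15.9, MYLIP from 51.8 to 25.1 and APOE from 53.4 to 27.5. ABCG1 moved from 20.4 to 2.92 among genes at 1 or above. Their share of the summed base means rose from 0.0301% to 0.0462% without the 22 mitochondrially encoded genes. At a base mean minimum of 5 or of 10 there were 9 of the 10 genes. At a minimum of 50 there were 5 (50%), against 39.9% of all genes. The different listed genes at or above the minimum numbered 67, 62 and 47 at minimums of 5, 10 and 50. With at most 1 mismatch, and with no mismatch, 0 of 15 promoters had a DR4 match. None of the 15 ratios computed turned around per kb, but 3 other pairs among the 10 genes changed order. Depth is unknown, so how far counting error limits the low levels, such as that of ABCG1, cannot be said.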
